A study of Mus musculus with 18 samples.

Results

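*Zbtb* genes encode transcription factors that carry a BTB domain and zinc fingers. They were examined in RNA-seq and Ribo-seq of the mouse cerebral cortex at embryonic day 15.5 (E15.5). Members were all genes whose symbol is *Zbtb* followed by a number and at most 1 letter, which gave 40 of the 55153 genes in the RNA-seq table. The rule uses the symbol alone. Wild-type cortices (Ctrl) were compared with cortices in which *Fto* was deleted (Fto(f/f, Emx1-cre), *F*-cKO) or *Mettl3* was deleted (Mettl3(f/f, Emx1-cre), *M*-cKO). Mettl3 is the enzyme that writes N6-methyladenosine (m6A) on RNA and Fto is a demethylase that removes it, so the comparisons ask how the RNA and the translation of genes differ when either enzyme is lost. The labels give C57BL/6 mice, while the study's methods give a mixed background of C57BL/6 and 129 for the floxed lines. Each genotype had 3 libraries per assay, 18 libraries in all. The *Emx1* promoter drives Cre in the lineage of the dorsal telencephalon, whereas interneurons that migrate in from the ganglionic eminence, vessels, microglia and meninges do not come from that lineage and were part of the tissue. These are bulk libraries, in which fewer cells of a type and less RNA per cell cannot be told apart.

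The BTB domain at the amino terminus forms dimers and recruits corepressor complexes with histone deacetylases, or the Cullin-3 ubiquitin ligase, and the zinc fingers at the carboxyl terminus read DNA. Many family members are known from blood: Zbtb7b directs T helper cell fate, Zbtb46 marks classical dendritic cells, Zbtb1 is needed for lymphocyte development and Zbtb7a silences fetal globin. In the brain, Zbtb18 (RP58) is a repressor required for the differentiation and migration of cortical neurons, and Zbtb20 acts in hippocampal and cortical development.

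RNA levels were read as FPKM, fragments per kilobase of gene scaled to library size, which allow genes of different length to be compared, and ribosome-protected fragments (RPFs) as RPKM on the same gene lengths. *Zbtb18* was the most abundant member, with an FPKM of 183, 168 and 189 in the Ctrl libraries. *Zbtb12* followed with a mean of 55.6 ± 1.64 (SD, n = 3), and then *Zbtb17* (Miz-1, a partner of Myc) with 19.2 ± 0.714. In Ctrl, 7 members had a mean FPKM of at least 10, 28 lay between 1 and 10, and 5 lay below 1, with a median of 4.10 over all 40. The 5 below 1 were *Zbtb7c*, *Zbtb7b*, *Zbtb32*, *Zbtb42* and *Zbtb9*, the last of which was listed at 0 in all 18 libraries. In the order of Ctrl FPKM over the 39 members above 0, 28 of the 38 pairs of neighbours had overlapping ranges, and those neighbours could not be ordered. In RPFs the median of the 40 was 4.62 RPKM, the highest was again *Zbtb18* with a Ctrl mean of 250.9, and 25 of 38 neighbouring pairs overlapped.

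**Figure D1:**
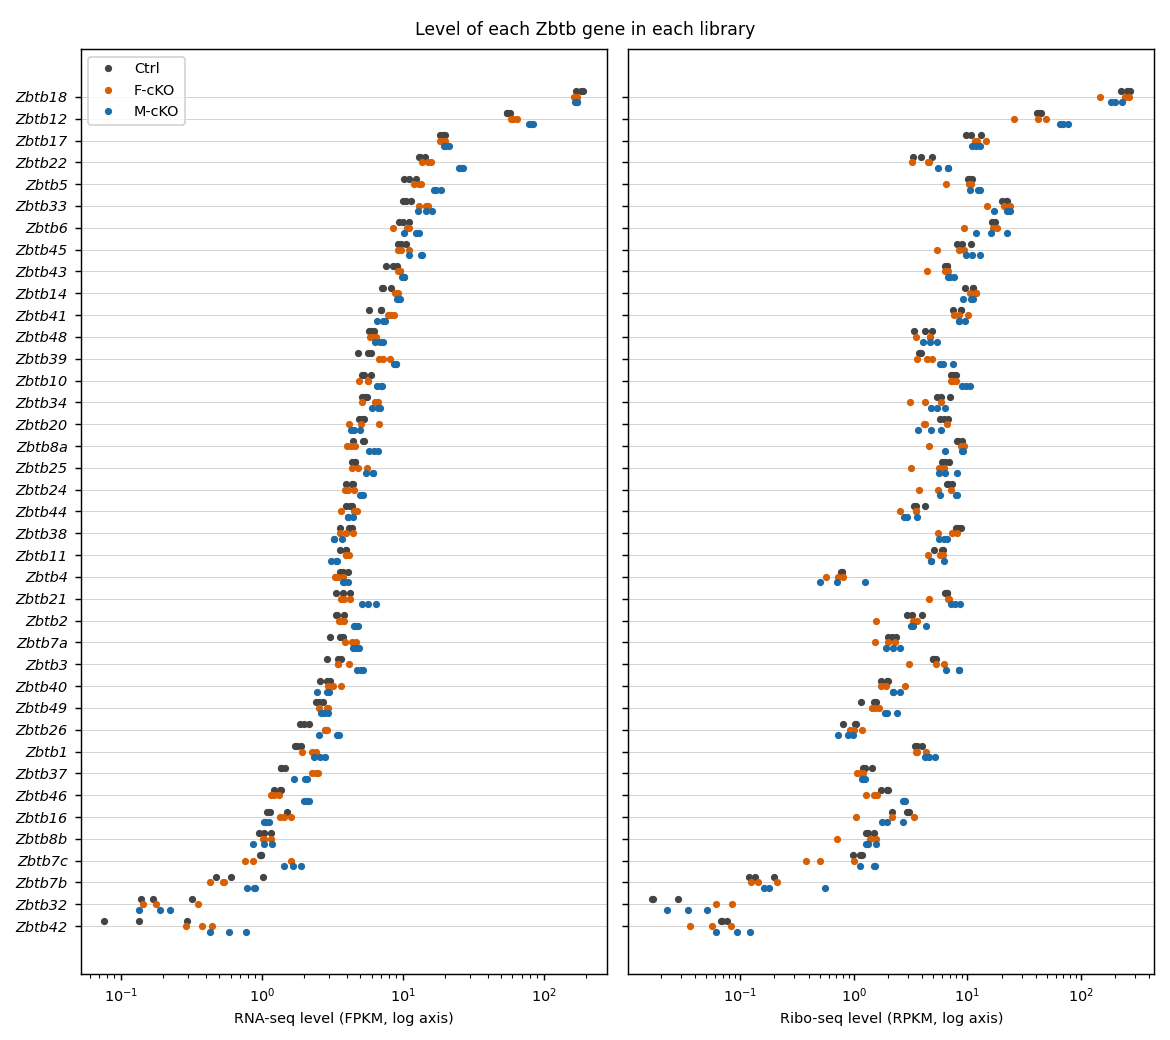
Level of the 39 *Zbtb* genes above 0 in each library, as RNA-seq FPKM (left) and Ribo-seq RPKM (right) on log axes, ordered by mean Ctrl FPKM; each point is 1 library, coloured by genotype, and a value of 0 is not drawn. *Zbtb18* and *Zbtb12* stand to the right of all other members in both assays, and *Zbtb4* has an RPKM far below the members beside it in the order.

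Depth was between 18504094 and 22592406 counted reads per RNA-seq library over all genes. For Ribo-seq it was between 10973699 and 35853227 fragments per library, over only the 14348 genes with a count in every library. The Ribo-seq library of *F*-cKO replicate 2 stood apart: it was the shallowest, its summed RPKM of 5 endothelial markers was 83.3 against 4.09 to 8.38 in the other 8 libraries, and it held the lowest RPKM of the 9 libraries for 24 of 36 *Zbtb* genes. *Fto* had an FPKM of 3.26, 7.56 and 2.43 in *F*-cKO against 8.37 to 11.2 in Ctrl, so RNA-seq replicate 2 of *F*-cKO kept more *Fto* RNA than the other 2, while *Fto* RPFs fell to 15.4% of the Ctrl mean. *Mettl3* RPFs fell to 67.7% of the Ctrl mean in *M*-cKO, but its FPKM was 143% of Ctrl. The gene-level RNA count includes exons that were not deleted, so it does not check the *M*-cKO label. Ribo-seq counts were given in every library for 36 members, and *Zbtb7b*, *Zbtb9*, *Zbtb32* and *Zbtb42* were blank in 8 of the 9 count columns, so those 4 were not tested for RPFs.

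In *M*-cKO cortices, *Zbtb* RNAs were mostly higher than in the Ctrl. Of the 38 members tested by edgeR's quasi-likelihood test, 22 rose and 0 fell at a Benjamini-Hochberg adjusted *P* below 0.05, adjusted over all 16968 genes tested. Among all genes 29.6% were called, 15.5% higher and 14.1% lower. The median log2 fold change was 0.30 over the 38 members and -0.01 over all genes tested. At an unadjusted *P* below 0.05, 24 members were higher and 3 were lower, against 40.6% of all genes (20.6% higher and 19.9% lower), and DESeq2 called 21 higher and 0 lower. On counts scaled by TMM to library size, the scale of the test, all *M*-cKO values lay above all Ctrl values for 24 members and below them for 2 (*Zbtb11* and *Zbtb20*, the latter overlapping in FPKM), against 44.9% of all genes (22.6% and 22.3%). In 5 other fits 1 member was called lower: *Zbtb38* without the filter on low counts, with the replicate number as a block, without Ctrl replicate 2 and without *M*-cKO replicate 1, and *Zbtb11* with all 9 libraries in a single fit. The changes were moderate: apart from *Zbtb42*, the called members rose between 1.19-fold and 1.89-fold. *Zbtb9* and *Zbtb32* did not pass the filter on low counts, and *Zbtb32*, a lymphocyte factor, had between 7 and 17 reads per library.

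The largest rise among the well-measured members was that of *Zbtb22*. Its FPKM was 14.5, 13.0 and 13.2 in Ctrl and 25.7, 24.9 and 26.9 in *M*-cKO, a log2 fold change of 0.92 ± 0.07 (SE, adjusted *P* = 1.81e-05). The *M*-cKO values lay far above the Ctrl range, and the *F*-cKO values of 15.8, 13.7 and 15.2 overlapped it. *Zbtb12*, the second most abundant member, went from 54.5, 54.9 and 57.5 to 83.9, 78.9 and 80.9 (log2 0.54 ± 0.06, adjusted *P* = 8.80e-05). *Zbtb39* went from 5.96, 5.71 and 4.84 to 8.95, 8.91 and 8.68 (log2 0.68 ± 0.08, adjusted *P* = 0.000207). *Zbtb46*, the dendritic cell marker, was low in the cortex, at 1.35, 1.22 and 1.37 in Ctrl and 2.17, 2.08 and 2.00 in *M*-cKO (log2 0.66 ± 0.10, adjusted *P* = 0.00084). In all of these genes the groups did not overlap. The *Zbtb46* locus overlaps *Zgpat* over 9785 bases and a *Slc2a4rg* pseudogene over 3347 bases in the RefSeq annotation, and the RNA log2 fold changes of these genes in *M*-cKO were 0.21 and -0.81. The library kit does not mark strand, so reads in shared sequence cannot be assigned to 1 of the genes.

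Members known as repressors of *Cdkn1a*, which encodes the cell cycle inhibitor p21, were among those that rose. *Zbtb5* went from an FPKM of 12.3, 11.1 and 10.2 in Ctrl to 18.6, 17.2 and 16.7 in *M*-cKO (log2 0.63 ± 0.08, adjusted *P* = 0.000176), with no overlap. *Zbtb2* rose by log2 0.37 ± 0.08 (adjusted *P* = 0.00673). *Zbtb7a*, at 3.59, 3.77 and 3.04 in Ctrl and 4.68, 4.91 and 4.44 in *M*-cKO, rose by 0.42 ± 0.10 (adjusted *P* = 0.00716). *Zbtb17* and *Zbtb49*, which are known to activate *Cdkn1a*, were not called: *Zbtb17* had 18.5, 19.9 and 19.3 in Ctrl, 19.9, 18.4 and 19.1 in *F*-cKO and 19.5, 19.9 and 21.2 in *M*-cKO, overlapping ranges with a log2 difference of 0.06 ± 0.06, and the difference of *Zbtb49* was 0.10 ± 0.09. *Cdkn1a* itself was higher in *M*-cKO, with an RNA log2 fold change of 1.03 ± 0.12 (adjusted *P* = 0.000139).

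Of the 3 members known to bind methylated DNA, only *Zbtb33* (Kaiso) rose in *M*-cKO RNA. Its FPKM was 11.4, 10.6 and 10.03 in Ctrl, 15.1, 14.6 and 13.1 in *F*-cKO and 14.7, 16.0 and 12.9 in *M*-cKO, so that both knockouts lay above the whole Ctrl range. The log2 fold changes were 0.44 ± 0.09 in *M*-cKO (adjusted *P* = 0.00308) and 0.41 ± 0.07 in *F*-cKO (adjusted *P* = 0.00706). *Zbtb4* was at 4.10, 3.76 and 3.61 in Ctrl, 3.31, 3.75 and 3.49 in *F*-cKO and 3.85, 4.06 and 3.78 in *M*-cKO, which overlap. *Zbtb38* was at 4.36, 3.58 and 4.13 in Ctrl, 3.95, 4.42 and 3.57 in *F*-cKO and 3.70, 3.23 and 3.27 in *M*-cKO, with overlapping ranges and a log2 difference of -0.25 ± 0.09 that missed the threshold (adjusted *P* = 0.0536).

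The 3 members listed for known roles in cortical or hippocampal development were not called in *M*-cKO RNA. *Zbtb18* had an FPKM of 171, 172 and 167 in *M*-cKO, against 169, 171 and 165 in *F*-cKO. Both ranges overlapped that of Ctrl, and the log2 difference in *M*-cKO was -0.09 ± 0.06 (adjusted *P* = 0.275). *Zbtb20* was at 5.27, 4.92 and 5.12 in Ctrl, 4.17, 5.03 and 6.80 in *F*-cKO and 4.96, 4.54 and 4.28 in *M*-cKO; its log2 difference in *M*-cKO was -0.16 ± 0.07 (adjusted *P* = 0.0837). *Zbtb16* (PLZF), known from germline stem cells and innate-like lymphocytes and also studied in neural progenitors, was at 1.51, 1.14 and 1.08 in Ctrl and 1.13, 1.08 and 1.04 in *M*-cKO, and the groups overlapped. By role, where 15.5% of all genes were called higher in *M*-cKO RNA and 11.5% in *F*-cKO RNA, 0 of these 3 were called in either knockout, 3 of 5 members linked to *Cdkn1a* rose in *M*-cKO and 0 in *F*-cKO, and 1 of 3 methyl-CpG binders rose in each. These lists are short, and 0 of 3 and 1 of 3 are near the background. Of 4 tested members listed under blood (*Zbtb7a* and *Zbtb16* were listed under other roles), *Zbtb46*, *Zbtb1* and *Zbtb25* rose in *M*-cKO and 0 in *F*-cKO. Of 6 known from telomeres, centromeres or other genome maintenance, *Zbtb24*, *Zbtb10* and *Zbtb43* rose in *M*-cKO and 0 in *F*-cKO. *Zbtb10* alone of these was left without Ctrl replicate 2 or 3 or without any of the 3 *M*-cKO replicates, since *Zbtb43* lost its call in those 5 fits (adjusted *P* up to 0.0877 with edgeR) as *Zbtb24* did.

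The other members that rose in *M*-cKO RNA had a mean Ctrl FPKM between 0.169 (*Zbtb42*) and 9.81 (*Zbtb45*). They were *Zbtb1*, *Zbtb21*, *Zbtb26*, *Zbtb7c*, *Zbtb37*, *Zbtb42*, *Zbtb10*, *Zbtb3*, *Zbtb45*, *Zbtb25*, *Zbtb14*, *Zbtb34*, *Zbtb43* and *Zbtb24*. *Zbtb24*, mutated in a human immunodeficiency with unstable centromeres, had the smallest rise among the called members (log2 0.25 ± 0.08, adjusted *P* = 0.042), and its call was lost in 9 of 11 alternatives, among them DESeq2 and each of the 6 fits without 1 library, with adjusted *P* values up to 0.116. *Zbtb42* had only 23, 10 and 5 reads in the Ctrl libraries and 61, 30 and 45 in *M*-cKO, so its log2 fold change of 1.77 ± 0.40 (adjusted *P* = 0.00743) rests on few reads. *Zbtb1* and *Zbtb25* overlap by 164 bases and both rose, by 0.51 ± 0.09 and 0.38 ± 0.10. *Zbtb8a*, *Zbtb6*, *Zbtb48* (which binds telomeres), *Zbtb41*, *Zbtb7b*, *Zbtb40*, *Zbtb8b*, *Zbtb44* and *Zbtb11* were not called, and log2 differences of members that were not called lay between -0.25 and 0.32.

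**Figure D2:**
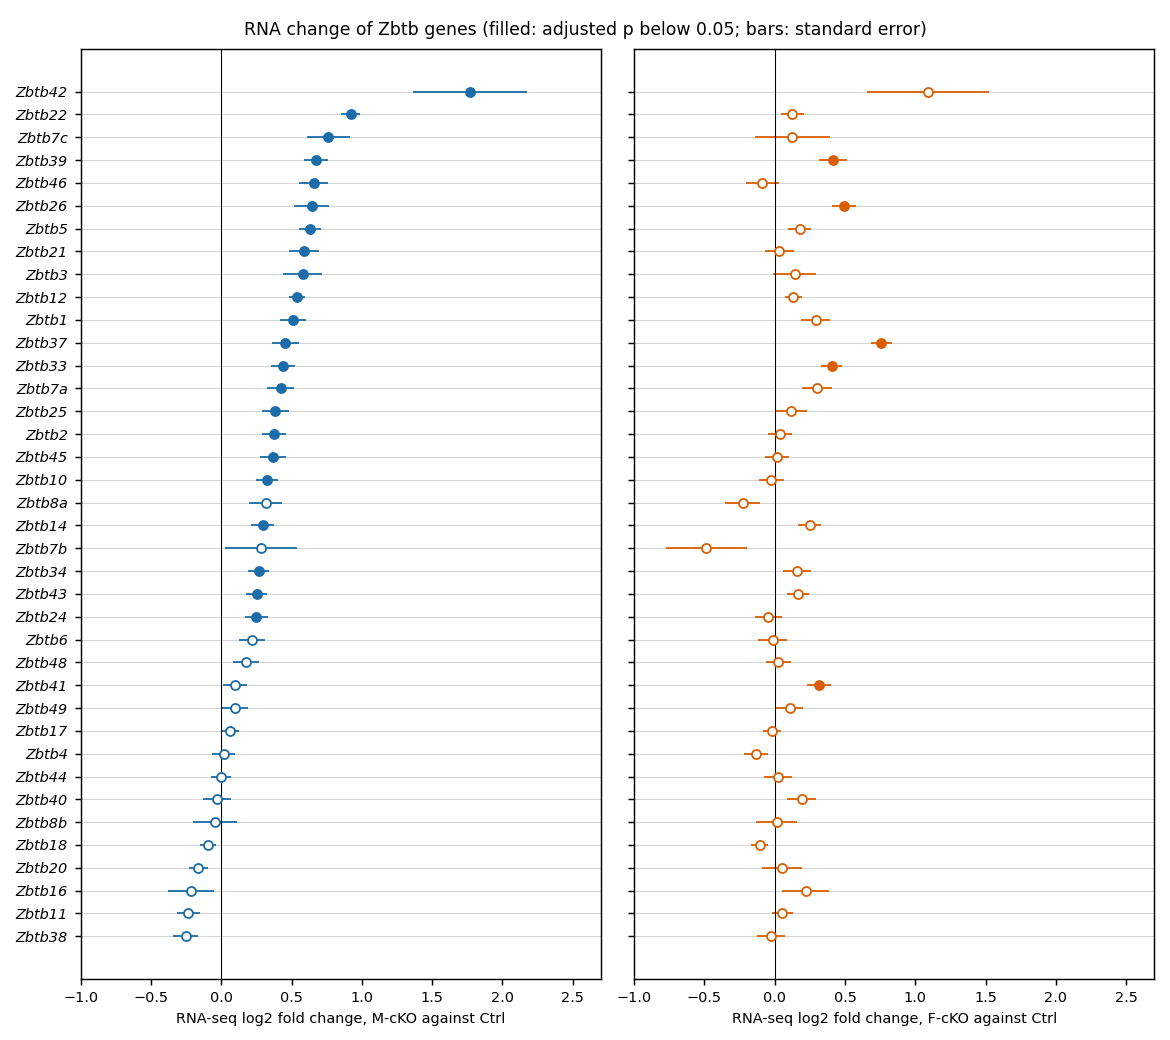
RNA-seq log2 fold change against Ctrl of the 38 tested *Zbtb* genes in *M*-cKO (left) and *F*-cKO (right), ordered by the *M*-cKO value; bars are standard errors and filled points passed an adjusted *P* of 0.05. In *M*-cKO 22 points are filled, all to the right of 0, and in *F*-cKO 5 are filled, also to the right of 0.

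In *F*-cKO cortices, 5 of 38 members rose in RNA and 0 fell, by the same test, against 21.1% of all genes (11.5% higher and 9.57% lower). At an unadjusted *P* below 0.05 the counts were 10 and 0, against 35.7% of all genes (18.2% and 17.5%). On the scaled counts all *F*-cKO values lay above Ctrl for 10 members and below for 0, against 41.6% (20.9% and 20.7%). The median log2 difference was 0.11 over the members and -0.01 over all genes. *Zbtb37* had the largest of these rises, with an FPKM of 1.38, 1.38 and 1.47 in Ctrl and 2.28, 2.49 and 2.42 in *F*-cKO (log2 0.76 ± 0.07, adjusted *P* = 0.00294), and its *M*-cKO values of 2.11, 2.03 and 1.68 also lay above Ctrl. *Zbtb26* was at 2.16, 1.99 and 1.87 in Ctrl, 2.81, 2.92 and 2.82 in *F*-cKO and 3.54, 3.41 and 2.53 in *M*-cKO (*F*-cKO log2 0.49 ± 0.09, adjusted *P* = 0.00593). *Zbtb39* was at 7.21, 6.83 and 8.17 in *F*-cKO, above all Ctrl values and below all *M*-cKO values (log2 0.42 ± 0.10, adjusted *P* = 0.0183). *Zbtb41* was at 6.96, 5.76 and 7.04 in Ctrl and 8.61, 8.24 and 7.92 in *F*-cKO (log2 0.32 ± 0.08, adjusted *P* = 0.0255). The fifth was *Zbtb33*. *Zbtb37* shares 264 bases with *Gas5*, a noncoding RNA with a Ctrl mean FPKM of 42.2 whose log2 difference was -0.09 in *F*-cKO RNA and 0.11 in the other knockout. Without *F*-cKO replicate 2, 4 of the 5 calls were left and *Zbtb41* was lost, as it was without Ctrl replicate 2 or *F*-cKO replicate 1. *Zbtb39* was lost without Ctrl replicate 3 and with the replicate number as a block. *Zbtb37*, *Zbtb26* and *Zbtb33* kept their calls in all 11 alternatives. Both knockouts were compared with the same Ctrl libraries, so the comparisons are not independent.

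Set against *F*-cKO, 13 members were higher in *M*-cKO RNA and 4 were lower, where 27.4% of all genes were called, 13.1% higher and 14.3% lower. At an unadjusted *P* below 0.05 the counts were 15 and 6, against 40% of all genes (19.4% and 20.6%), and scaled counts did not overlap for 15 higher and 4 lower, against 43.7% (21.2% and 22.5%). The smallest adjusted *P* values belonged to *Zbtb22* (log2 0.78 ± 0.07, 0.000113), *Zbtb46* (0.74 ± 0.11, 0.00108), *Zbtb12* (0.39 ± 0.06, 0.00142), *Zbtb5* (0.44 ± 0.07, 0.00145) and *Zbtb21* (0.55 ± 0.10, 0.00392). *Zbtb21* had an FPKM of 3.78, 4.21 and 3.38 in Ctrl, 3.86, 4.25 and 3.63 in *F*-cKO and 6.49, 5.65 and 5.11 in *M*-cKO. In *F*-cKO *Zbtb46* was at 1.22, 1.33 and 1.17, *Zbtb12* at 64.8, 60.7 and 58.9 and *Zbtb5* at 13.0, 13.5 and 11.9, and every one of these values was below those of *M*-cKO. Of the 13 higher members, 11 had also risen against Ctrl, the others being *Zbtb7b* and *Zbtb8a*. The lower members were *Zbtb11* (4.14, 3.96 and 3.93 in *F*-cKO against 3.36, 3.39 and 3.09), *Zbtb37*, *Zbtb41* (7.50, 7.19 and 6.60 in *M*-cKO) and *Zbtb16* (1.44, 1.61 and 1.35 against 1.13, 1.08 and 1.04). The count of 17 fell to 11 without *F*-cKO replicate 1 and to 10, 9 and 10 without *M*-cKO replicate 1, 2 and 3, and *Zbtb16* was lost in 9 of 11 alternatives. Without *F*-cKO replicate 2, 12 members were called higher and 0 lower.

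RPFs in *M*-cKO rose for 5 of the 36 members tested and fell for 1, against 14.6% of 14314 genes (7.13% higher and 7.5% lower). At an unadjusted *P* below 0.05 the counts were 10 and 3, against 34.1% (16.6% and 17.5%), and scaled counts did not overlap for 12 higher and 1 lower, against 39.4% (18.4% and 21%). *Zbtb5*, among these 12, overlapped in RPKM. The median log2 difference was 0.09 over the 36 members and -0.00 over all genes. *Zbtb12* had 44.2, 41.2 and 43.2 RPKM in Ctrl and 69.8, 65.9 and 77.3 in *M*-cKO, without overlap (log2 0.74 ± 0.09, adjusted *P* = 0.00569). *Zbtb39* had 3.92, 3.74 and 3.80 in Ctrl and 7.42, 5.80 and 6.08 in *M*-cKO (log2 0.76 ± 0.12, adjusted *P* = 0.0118). *Zbtb46* went from 2.02, 1.96 and 1.72 to 2.75, 2.69 and 2.81 (log2 0.55 ± 0.12, adjusted *P* = 0.0263). *Zbtb3* had 5.002, 4.95 and 5.27 in Ctrl and 8.52, 6.55 and 8.45 in *M*-cKO (log2 0.64 ± 0.14, adjusted *P* = 0.0266). *Zbtb10*, which binds telomeric repeats, had 7.42, 7.97 and 7.17 in Ctrl and 8.99, 9.76 and 10.6 in *M*-cKO (log2 0.39 ± 0.10, adjusted *P* = 0.0443). All 5 had risen in RNA as well. *Zbtb38* was the member that fell, from 8.22, 8.03 and 8.71 to 6.20, 5.63 and 6.56 (log2 -0.43 ± 0.08, adjusted *P* = 0.0207). The count of 6 depended on the fit: it was 0 with all 9 libraries in a single fit, 3 with the replicate number as a block, 9 with DESeq2, and 2, 1, 2 and 3 without Ctrl replicate 1, Ctrl replicate 2, Ctrl replicate 3 and *M*-cKO replicate 1. *Zbtb12* kept its call in every alternative other than the single fit over 9 libraries, where its adjusted *P* was 0.108.

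**Figure D3:**
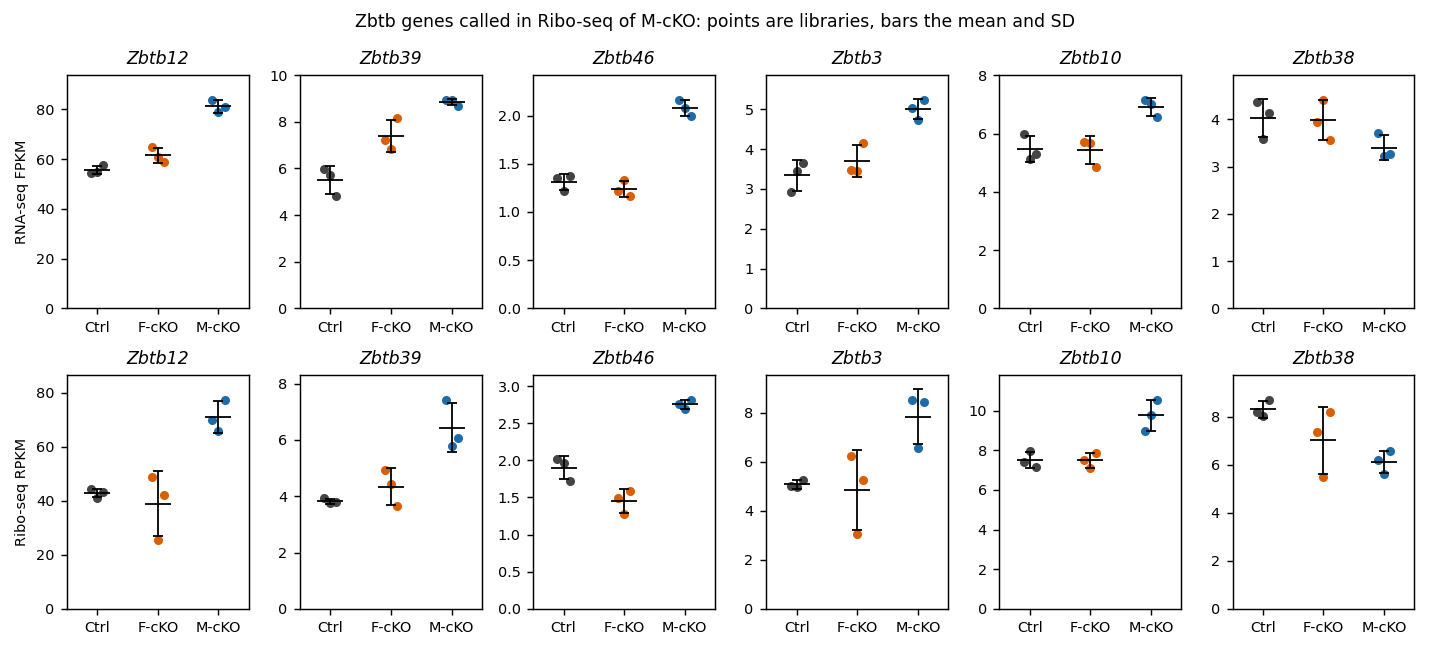
FPKM (top) and RPKM (bottom) of the 6 *Zbtb* genes called in Ribo-seq of *M*-cKO; points are libraries and bars the mean and SD of 3. For *Zbtb12*, *Zbtb39*, *Zbtb46*, *Zbtb3* and *Zbtb10* all *M*-cKO points lie above all Ctrl points in both assays, and for *Zbtb38* they lie below them in RPKM.

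The RefSeq promoter table (GRCm38.p6) held 35 of the 40 members, and the 250 bases before an annotated transcript start are shown for members that rose in both assays, so that their starts can be compared. *Zbtb10* has no entry, and the entry of *Zbtb46* lies inside its annotated locus, away from the 5′ end, and is not shown. In the lines that follow, capitals mark the GC box (GGGCGG) and the CCAAT box (CCAAT), searched on both strands.
Zbtb12: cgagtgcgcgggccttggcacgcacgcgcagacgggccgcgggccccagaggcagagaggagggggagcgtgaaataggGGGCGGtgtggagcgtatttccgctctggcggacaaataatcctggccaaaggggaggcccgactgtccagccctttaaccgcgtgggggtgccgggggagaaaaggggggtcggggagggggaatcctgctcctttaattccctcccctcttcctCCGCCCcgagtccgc
Zbtb39: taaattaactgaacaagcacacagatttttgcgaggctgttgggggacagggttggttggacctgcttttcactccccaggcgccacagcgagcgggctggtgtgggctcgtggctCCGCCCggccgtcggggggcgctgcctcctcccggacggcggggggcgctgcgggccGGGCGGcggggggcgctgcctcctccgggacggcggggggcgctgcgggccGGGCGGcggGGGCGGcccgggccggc
Zbtb3: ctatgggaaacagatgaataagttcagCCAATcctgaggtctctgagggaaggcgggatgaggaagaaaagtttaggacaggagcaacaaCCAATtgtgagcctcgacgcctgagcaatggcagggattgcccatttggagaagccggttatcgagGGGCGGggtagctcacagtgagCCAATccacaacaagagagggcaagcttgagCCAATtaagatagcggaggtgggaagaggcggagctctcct
The windows are chr17:34894309-34894558 on the plus strand for *Zbtb12*, chr10:127739280-127739529 on the plus strand for *Zbtb39* and chr19:8802263-8802512 on the plus strand for *Zbtb3* (the first of its entries). *Zbtb12* had 2 GC boxes and *Zbtb39* had 4, whereas *Zbtb3* had 1 GC box and 4 CCAAT boxes. Over the full windows of 250 bases before and 50 after the start, a GC box was found in 26 of 35 member genes and in 35.7% of all 32851 promoter windows, counting 48 windows for the members, of which 66.7% held it. CCAAT was found in 31.2% of the members' windows and 37.4% of all. The median window held 25 CG pairs in the members and 7 in all. The sequence TCCTGCNA, known as a site of Kaiso, was in 8.33% of the members' windows, those of *Zbtb18* and *Zbtb37*, and in 4.96% of all. A GC box was present in 16 of the 20 genes with an entry that rose in *M*-cKO RNA. These matches are a description of the sequence and do not show binding.

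The RPFs of the members that rose in RNA were set beside their RNA. Of the 22 members that rose in *M*-cKO RNA, 21 were tested in Ribo-seq, 5 rose, 0 fell and 16 were not called. The RPF log2 difference was above 0 in 16 of the 21, or 76.2%, and in 83% of all genes chosen in the same way. The 5 are 23.8% of the members chosen in this way, and among all 2447 genes that rose in RNA and were tested in Ribo-seq 23.7% rose in RPFs, so the members' share was that of the background. The RPF difference was below the RNA difference in 17 of the 21, or 81%, and in 69.6% of the 2447 genes. Because the genes were chosen by their RNA rise, these shares are a description. *Zbtb26* is an example, with an RPKM of 0.804, 1.02 and 1.04 in Ctrl and 0.883, 0.720 and 0.994 in *M*-cKO, overlapping ranges beside an RNA rise of log2 0.64. *Zbtb33* had 20.4, 22.3 and 22.0 in Ctrl and 22.5, 17.2 and 23.7 in *M*-cKO, and *Zbtb5* had 10.4, 10.97 and 10.2 against 13.0, 10.5 and 12.4. *Zbtb22* had 4.87, 3.92 and 3.34 in Ctrl and 6.75, 6.78 and 5.57 in *M*-cKO, with no overlap, but its RPF difference of log2 0.67 ± 0.18 missed the threshold (adjusted *P* = 0.0506). Across the 36 members the *M*-cKO log2 differences in RNA and RPFs had a Pearson *r* of 0.66 and a Spearman rho of 0.60, given as a description of genes that share the same libraries.

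**Figure D4:**
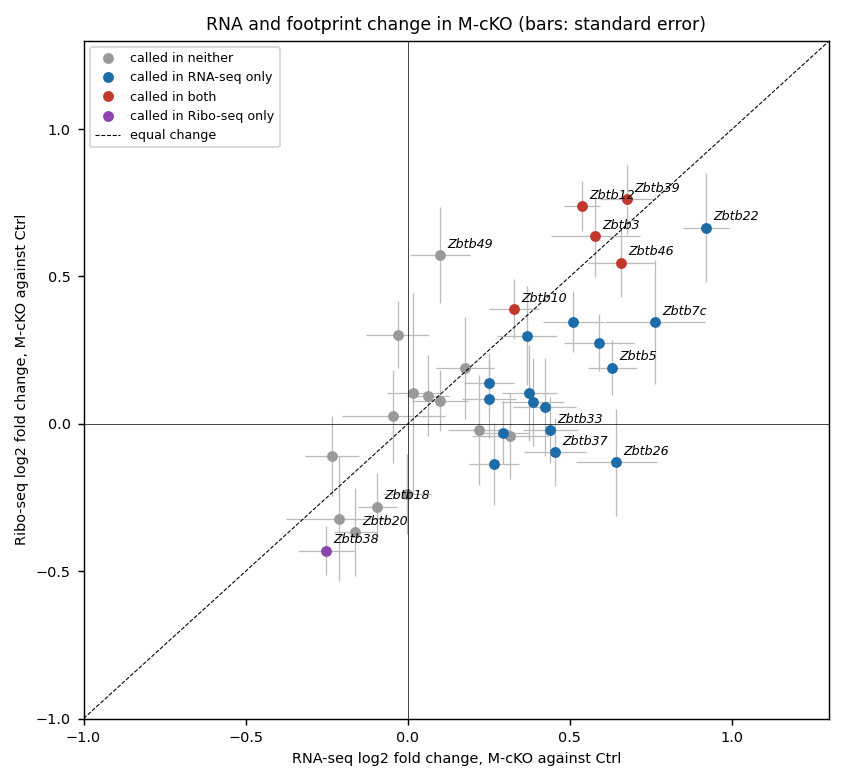
Log2 fold change in *M*-cKO of 36 *Zbtb* genes in RNA-seq (horizontal) and Ribo-seq (vertical), with standard errors; colours show in which assay a gene was called and the dashed line marks equal change. Of the 21 genes called higher in RNA, 17 lie below the line, a choice of genes by the horizontal value, with 69.6% of all genes chosen in that way below it. Among the 17 are *Zbtb26*, *Zbtb37*, *Zbtb33* and *Zbtb5*.

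RPFs of the other members with known roles were also measured. *Zbtb18* had 224, 255 and 273 RPKM in Ctrl, 244, 148 and 264 in *F*-cKO and 200, 184 and 230 in *M*-cKO, and the *M*-cKO difference was log2 -0.28 ± 0.11 (adjusted *P* = 0.127). *Zbtb20* had 6.79, 6.18 and 5.72 in Ctrl and 4.83, 3.71 and 5.89 in *M*-cKO (log2 -0.37 ± 0.15, adjusted *P* = 0.128). In both genes the ranges of Ctrl and *M*-cKO overlapped. *Zbtb16* had 2.92, 3.07 and 2.16 in Ctrl and 1.78, 1.96 and 2.72 in *M*-cKO, *Zbtb17* had 13.2, 10.8 and 9.81 against 12.8, 11.9 and 11.1, *Zbtb7a* had 2.18, 2.34 and 2.01 against 1.93, 2.58 and 2.22, and *Zbtb4* had 0.787, 0.787 and 0.767 against 0.508, 1.26 and 0.718. These 4 overlapped between the groups as well.

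In *F*-cKO no member was called in RPFs by edgeR, 0 of 36, as was no gene of the 14335 tested (0%). The smallest adjusted *P* of edgeR over all genes was 0.35. *Fto*, whose RPFs fell to 15.4% of the Ctrl mean, was thus not called either. At an unadjusted *P* below 0.05 the members numbered 0, against 2.22% of genes (1.58% higher and 0.635% lower), and DESeq2 called 0. Scaled counts did not overlap for 0 higher and 2 lower members, against 7.85% of genes (3.66% and 4.2%). The median log2 difference of the 36 members was -0.12, against 0.05 over all genes, and it was 0.02 without *F*-cKO replicate 2. Members that had risen in *F*-cKO RNA gave these RPKM values: *Zbtb37* had 1.16, 1.06 and 1.20 against 1.27, 1.22 and 1.46 in Ctrl, below the Ctrl range, while *Zbtb26* had 1.19, 1.01 and 0.935, *Zbtb33* had 23.6, 15.1 and 21.1, and *Zbtb39* had 4.93, 4.45 and 3.64. Of these, *Zbtb26*, *Zbtb33* and *Zbtb39* overlapped Ctrl. *Zbtb41* had 10.1, 7.66 and 8.45 against 7.53, 8.89 and 8.87 and overlapped too. Between *M*-cKO and *F*-cKO RPFs edgeR called 0 members and 0% of genes, 7 were higher and 0 lower at an unadjusted *P* below 0.05 against 8.09% of genes (4.98% and 3.11%), 14 were higher without overlap of scaled counts against 9.17% (16.1% in both directions and 6.91% lower), and DESeq2 called *Zbtb12* and *Zbtb46* higher. The biological coefficient of variation was 0.379 for Ribo-seq of *F*-cKO and Ctrl and 0.413 between the knockouts, against 0.23 for *M*-cKO and Ctrl and 0.103 or less in RNA-seq, so smaller RPF changes were detectable in *M*-cKO than in *F*-cKO, and the lack of calls in *F*-cKO RPFs and TE does not show that they were unchanged.

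Translational efficiency (TE), the ratio of mean RPKM to mean FPKM, differed widely among the members within Ctrl. Both measures use the same length per gene, and the paper mapped RPFs mainly to coding sequence. TE therefore also depends on the coding share of each gene, which was not measured here. Differences in TE between genes are given as a description. The median TE of 39 members was 1.13 and that of all 25038 genes above 0 in both assays was 0.79. With a minimum of 1 in both assays the medians were 1.28 for 33 members and 0.993 for 10491 genes. In the knockouts the median of the members was below that of all genes, 0.773 against 0.85 in *F*-cKO and 0.874 against 0.944 in *M*-cKO, whereas with the minimum of 1 it was above, 0.977 against 0.94 and 1.08 against 0.944. The lowest were *Zbtb32* (0.0993 ± 0.0319 SE), which rests on 1 to 2 fragments and 7 to 14 reads per Ctrl library, and *Zbtb4* (0.204 ± 0.00802), and the highest were *Zbtb16* (2.18 ± 0.326), *Zbtb38* (2.07 ± 0.129), *Zbtb1* (2.06 ± 0.102) and *Zbtb33* (2.02 ± 0.0934). The methyl-CpG binders thus included members near both ends of the order, since *Zbtb4* had an FPKM of 4.10, 3.76 and 3.61 in Ctrl but an RPKM of 0.787, 0.787 and 0.767. *Zbtb22*, behind only *Zbtb18*, *Zbtb12* and *Zbtb17* in RNA level, had a TE of 0.298 ± 0.0343. *Zbtb18* was at 1.39 ± 0.0937 and *Zbtb12* at 0.77 ± 0.0205.

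**Figure D5:**
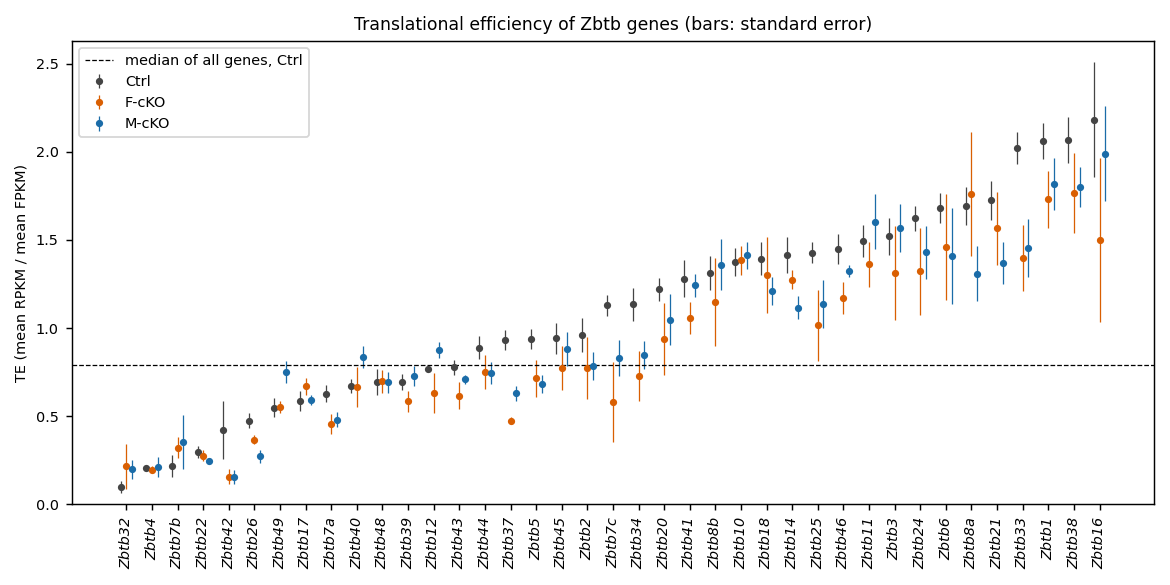
TE of 39 *Zbtb* genes in each of the 3 genotypes, ordered by the Ctrl value; bars are standard errors from 3 libraries per assay and the dashed line is the Ctrl median of all genes, 0.79. The Ctrl points run from 0.0993 for *Zbtb32* to 2.18 for *Zbtb16*.

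Differential TE was tested as the interaction of assay and genotype, and edgeR called 0 of 36 members in either knockout. Among all genes 3.07% were called in *M*-cKO (1.89% higher and 1.18% lower) and 0% in *F*-cKO. At an unadjusted *P* below 0.05, 3 members were higher and 4 lower in *M*-cKO, against 21.5% of genes (12.3% and 9.21%), and 0 were higher and 3 lower in *F*-cKO, against 9.29% (3.11% and 6.18%). In *M*-cKO the smallest adjusted *P* values were those of *Zbtb26* (log2 -0.70 ± 0.22, adjusted *P* = 0.0878), *Zbtb37* (-0.48 ± 0.15, 0.0956), *Zbtb5* (-0.37 ± 0.12, 0.103) and *Zbtb49* (0.54 ± 0.18, 0.106). DESeq2 called the first 3 of these lower, a fit that paired the RNA-seq and Ribo-seq libraries of each number called 0, and *Zbtb26* was also called by edgeR without Ribo-seq *M*-cKO replicate 3. The median TE log2 difference of the members was -0.10 in *M*-cKO, against 0.02 over all genes, and -0.23 in *F*-cKO, against -0.01. Without Ribo-seq *F*-cKO replicate 2, the *F*-cKO median was -0.09. In *F*-cKO *Zbtb37* differed by log2 -0.95 ± 0.15 (adjusted *P* = 0.372), *Zbtb34* by -0.62 ± 0.26 and *Zbtb33* by -0.53 ± 0.15, and DESeq2 called *Zbtb37* lower. Between the knockouts 0 members and 0% of genes were called, with 3 members higher and 0 lower at an unadjusted *P* below 0.05, against 4.11% of genes (2.44% and 1.67%), and 0 called by DESeq2.

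BTB zinc finger genes with other names and genes that act with the family were measured in *M*-cKO RNA by the same test, in which 15.5% of all genes were called higher and 14.1% lower. Of 8 relatives, *Patz1* (log2 0.51) and *Hic2* (0.46) rose, *Bcl6b* (-0.65) fell and 5 were not called. Of 4 genes of the Cullin-3 ligase, *Cand1* (0.26) rose, and of 7 partners *Cdca7* (0.91), whose expression depends on Zbtb24, rose. Of 9 tested genes known as targets, *Rnd2* (0.65), *Id3* (0.43), *Id4* (1.10) and *Cdkn1a* rose and *Id2* (-0.69) fell, *Rnd2* and the *Id* genes being known targets of Zbtb18. In *F*-cKO RNA, where 11.5% of all genes were higher and 9.57% lower, the counts of higher and lower genes were 3 and 1 of the 8 relatives, 1 and 1 of the 4 ligase genes, 2 and 1 of the 7 partners and 3 and 3 of the 9 targets. In *M*-cKO RPFs, where 7.13% and 7.5% of all genes were called, they were 0 and 0 of 7 relatives, 0 and 0 of 4 ligase genes, 1 and 1 of 7 partners and 1 and 0 of 9 targets. In lists this short, 1 or 2 calls are near those shares.

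Markers of cell types moved with genotype, and their part in the *Zbtb* changes was not tested. In *M*-cKO RNA, against 15.5% of all genes higher and 14.1% lower, all 7 interneuron and ganglionic eminence markers rose, their summed FPKM going from 85.9 to 87.1 in Ctrl to 121 to 164, as did 4 of 5 striatal, 4 of 5 deep-layer neuron and 2 of 5 intermediate progenitor markers. Upper-layer neuron markers fell for 3 of 4, and 3 of 8 radial glia markers rose and 2 fell. None of the 5 endothelial, 6 erythroid, 5 microglial, 5 meningeal or the single tested muscle and lymphoid markers was called. In *M*-cKO RPFs 7.13% of all genes were higher and 7.5% lower. There 3 of 7 interneuron, 3 of 5 striatal, 2 of 5 deep-layer and 1 of 8 radial glia markers rose. Those that fell were 1 of 4 upper-layer and 1 of 8 radial glia markers, and the remaining marker lists had no call. In *F*-cKO RNA, against 11.5% higher and 9.57% lower, 4 of 5 deep-layer, 4 of 5 striatal, 3 of 5 intermediate progenitor and 3 of 7 interneuron markers rose, 4 of 8 radial glia markers rose and 2 fell, and 1 endothelial, 1 erythroid and 2 meningeal markers fell. Between *M*-cKO and *F*-cKO RNA, where 13.1% of all genes were higher and 14.3% lower, 6 of 7 interneuron, 5 of 6 erythroid and 3 of 5 meningeal markers and 1 each of the deep-layer, endothelial, microglial and radial glia markers were higher in *M*-cKO, and 4 of 8 radial glia, 3 of 4 upper-layer, 2 of 5 deep-layer and 2 of 5 intermediate progenitor markers were lower. Lymphoid markers, whose cells are the known site of several *Zbtb* genes, were near 0: the summed FPKM of 4 was between 0.0388 and 0.134 over the 9 libraries, with *Cd3e* at 0 in all.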

How the data were processed

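RNA-seq and Ribo-seq of E15.5 cortices comprised 3 libraries per genotype and assay, assigned by the labels. Per the labels and the study's methods, RNA-seq reads were aligned by the authors with Hisat2 v2.0.5 and deposited as read counts and FPKM per gene, and Ribo-seq fragments were mapped with TopHat2, counted with HTSeq and deposited as counts and RPKM. The submitters' processing notes name build mm10. The annotation, the RNA-seq counting tool and its strand setting are not given in the sources used here. The study's methods take 3 Ribo-seq samples from 1 L, which may mean 1 litter, and state no litters for RNA-seq. *P* values therefore measure the spread between these libraries. Both knockouts come from different floxed lines and share the Ctrl libraries, so genotype cannot be told apart from line or litter. Both tables use 1 length per gene, equal to within 4.8e-07 over 22088 genes.

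The deposited counts were fitted with edgeR 4.0.16 (R 4.3.3) using filterByExpr (minimum count 10, minimum total 15), TMM scaling, the quasi-likelihood test over the 6 libraries of a comparison, and Benjamini-Hochberg adjustment over all genes. Differential TE was the assay-by-genotype interaction over 12 libraries. RNA-seq and Ribo-seq libraries of the same number had weakly correlated deviations in Ctrl and *M*-cKO (every correlation over 0.1) but not in *F*-cKO. A fit that pairs them was added after seeing the data. Calls required an adjusted *P* under 0.05, with no fold limit. Alternatives were DESeq2 1.42.0, RLE scaling, no filter, a single fit of all libraries, the replicate number as a block, blank Ribo-seq counts filled from RPKM, and leaving out each library. The blank Ribo-seq cells (40490 genes) were otherwise left out. A run of the fits on simulated data is not reported here and is not used as support.

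Members and lists were chosen with earlier results of these data known. Members were named with every library's value if they were among the 5 called with the smallest adjusted *P* per direction and comparison, or were *Zbtb18*, *Zbtb20*, *Zbtb16*, *Zbtb33*, *Zbtb4*, *Zbtb38*, *Zbtb17* or *Zbtb7a*. Others were named after their values were seen. A further list of genes that act with the family is not reported here. Symbols, positions and promoters are from RefSeq GRCm38.p6, and symbols matched 54723 of 55153 genes.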

Additional observations from a re-analysis of the deposited data

How the results depend on the processing

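The count of *Zbtb* genes called in *M*-cKO RNA stayed between 18 and 23 in all alternatives, and 18 to 21 with a library left out. In *F*-cKO RNA it was 5, 8 without the filter on low counts, and 4 to 7 with a library left out. Between the knockouts it was 17 in RNA and 9 to 16 with a library left out. In *M*-cKO RPFs it was 6, 0 with all libraries in a single fit and 1 to 7 with a library left out. Where edgeR called 0, DESeq2 called 2 members in RPFs between the knockouts, 1 in TE of *F*-cKO and 3 in TE of *M*-cKO. Leaving out a library gave 0 to 1 calls in TE of *M*-cKO and 0 in the remaining RPF and TE comparisons. The median TE of members in Ctrl was 1.13, 1.28 with a minimum of 1 in both assays (all genes 0.993), and 1.07 to 1.16 with a replicate number left out.

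Within an assay, deviations from the group means of same-numbered libraries of different genotypes correlated at -0.278 to 0.163, with both signs. The upper end overlaps the values between the assays. These numbers were not taken as pairs. Between the assays, the RNA-seq and Ribo-seq libraries of one number correlated at 0.11 to 0.265 in Ctrl and 0.103 to 0.328 in *M*-cKO, and at -0.276 to -0.0186 in *F*-cKO. A replicate block of RNA-seq and Ribo-seq libraries, chosen after seeing the data, was fitted for TE and called 0 members in each of the 3 comparisons. With the replicate number as a block, 4 members were called in *F*-cKO RNA, 22 in *M*-cKO RNA, 13 between the knockouts in RNA and 3 in *M*-cKO RPFs, and 0 in the other comparisons. Of 1971 values of single members under the alternatives, 0 of the called ones changed sign, 104 lost and 35 gained a call. The shallowest library, Ribo-seq *F*-cKO replicate 2, is part of the RPF and TE comparisons that include *F*-cKO. There edgeR called 0 members with and without it, and 0 calls do not show that members were unchanged.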
